A study of Saccharomyces cerevisiae with 6 samples.

Results

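Gluconeogenesis and the glyoxylate cycle let budding yeast (*Saccharomyces cerevisiae*) build sugar from ethanol and acetate. The genes examined were PCK1, FBP1, ICL1, MLS1, MDH2, ACS1, ADH2 and ALD4, 8 genes chosen by pathway and looked up by symbol in a table of 4909 genes. Of the 8 genes, 4 were listed (PCK1, ICL1, MDH2 and ALD4), and FBP1, MLS1, ACS1 and ADH2 had no row under their symbol or locus tag and were not analysed here. They were selected on pathway with the RNA levels of these libraries, those of PCK1 among them, and the low wild-type read numbers in view. No threshold on a measured value was used. Adjusted p-values for RNA level therefore describe the fit and are not independent evidence about the group.

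In medium with glucose, yeast represses these genes. Repression acts in part through the DNA-binding protein Mig1. When glucose runs out, the activators Cat8 and Sip4 bind a carbon source-responsive element (CSRE) in many of these promoters, and Adr1 activates genes for the use of ethanol. The messenger RNAs of several gluconeogenic enzymes are also known to be degraded quickly when glucose is added. Messenger RNA decay in yeast usually begins with shortening of the poly(A) tail, largely by Ccr4 and Pop2 of the Ccr4-Not complex, followed by removal of the 5′ cap by Dcp2.

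Direct RNA sequencing on nanopores gave, for each gene and library, a read count and 1 further value, a median that was read as poly(A) tail length in nucleotides (nt). The 6 libraries formed 3 groups of 2. The wild type was BY4741 (mating type a, leu2Δ0 his3Δ1 ura3Δ0 met15Δ0). The Dcp2 degron strain LMA5574 (below, the Dcp2 strain) was labelled as BY4741 with the variant E1493Q of TAO3, an inserted A at -308 of RME1, a cassette at trp1-1 with the marker TRP1, the estradiol-activated transcription factor Z3EV and the auxin receptor TIR, and Dcp2 tagged with polyG, 3 Flag copies and AID, marked with kanMX. The Ccr4/Pop2 degron strain LMA5601 (the Ccr4/Pop2 strain) shared the first 3 of these changes and carried AID tags on Ccr4 (with 3 Flag copies) and on Pop2 (labelled CAF1, marked with KanMX6). All groups, the wild type included, grew exponentially at 30 °C in YPD, a rich glucose medium, to optical density 0.4, and 100 µM IAA (an auxin) together with 1 µM β-estradiol was then added for 1 h. The AID tag directs a protein to destruction when auxin and TIR are present. The wild type had neither the cassette nor the TAO3 and RME1 alleles, so effects of the depletion and of the strain background cannot be told apart. Each degron was a single strain, and the labels do not say whether replicates were separate cultures, so p-values measure the spread between these libraries.

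Total reads ranged from 1067250 to 8450296 per library. Every count in Ccr4/Pop2 strain replicate 1, the deepest library, was a multiple of 4, and so its counts may not be numbers of separate reads. The lowest count in replicate 1 of either degron was 20, while wild-type counts went down to 2 and 1. A gene scarce in the wild type was therefore listed only with at least 20 reads in those libraries, where PCK1 had 53 and 24 and ICL1 had 23 and 108, so counts over the listed genes support no statement on the pathway. Of 7 genes expressed in cells of mating type a, 6 were listed, with at least 88 reads in each library, and of 4 genes of mating type alpha only SAG1 was listed, with 7 to 37 reads.

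The sequences upstream of the listed genes are shown first, because the CSRE is a feature that many of these promoters are known for. The CSRE core was searched as CC and CCG with 6 free bases between them, on both strands, in the 500 bases before each start codon in the R64 genome, which is the build the submitters name as sacCer3. It was present before 7 of the 8 genes, ALD4 being the exception, and before 20.8% of 6002 protein-coding genes. The windows below lie upstream of PCK1 (chrXI:630662-630811, plus strand), ICL1 (chrV:287255-287404, minus strand) and MDH2 (chrXV:83261-83410, minus strand), and capitals mark matches to the core, 2 in PCK1, 1 in ICL1 and 4 in MDH2. No annotated coding sequence overlaps these windows.
PCK1: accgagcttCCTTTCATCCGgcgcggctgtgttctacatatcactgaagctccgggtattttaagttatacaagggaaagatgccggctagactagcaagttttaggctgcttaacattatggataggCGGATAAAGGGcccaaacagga
ICL1: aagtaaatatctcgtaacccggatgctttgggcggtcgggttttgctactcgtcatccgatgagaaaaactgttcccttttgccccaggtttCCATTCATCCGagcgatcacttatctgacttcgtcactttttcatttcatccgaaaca
MDH2: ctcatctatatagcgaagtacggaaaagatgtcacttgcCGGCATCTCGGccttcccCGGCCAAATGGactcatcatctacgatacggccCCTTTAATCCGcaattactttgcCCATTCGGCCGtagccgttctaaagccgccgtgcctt

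ALD4 had no match to the CSRE core but 3 matches to the Adr1 core, searched as TTGGAG or TTGGGG on both strands, which 26.2% of genes had within 500 bases. A 150-base window upstream of ALD4 (chrXV:1039540-1039689, plus strand) shows in capitals a pair of these matches that stand side by side.
ALD4: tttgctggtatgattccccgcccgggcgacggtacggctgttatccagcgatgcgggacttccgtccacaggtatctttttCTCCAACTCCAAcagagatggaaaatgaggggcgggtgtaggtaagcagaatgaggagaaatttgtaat

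A Mig1 core (GGGG after C or T, itself after G or C, both strands) was present within 500 bases before all 4 listed genes and before 22.7% of all genes. In MDH2 it overlapped a CSRE match by 3 bases. In the 200 bases after the stop codon, PCK1 alone among the 4 listed genes had the letters TGTANATA, a form bound by the RNA-binding protein Puf3, which 14.1% of all genes had. These matches are letters in a window and do not show binding.

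**Figure D1:**
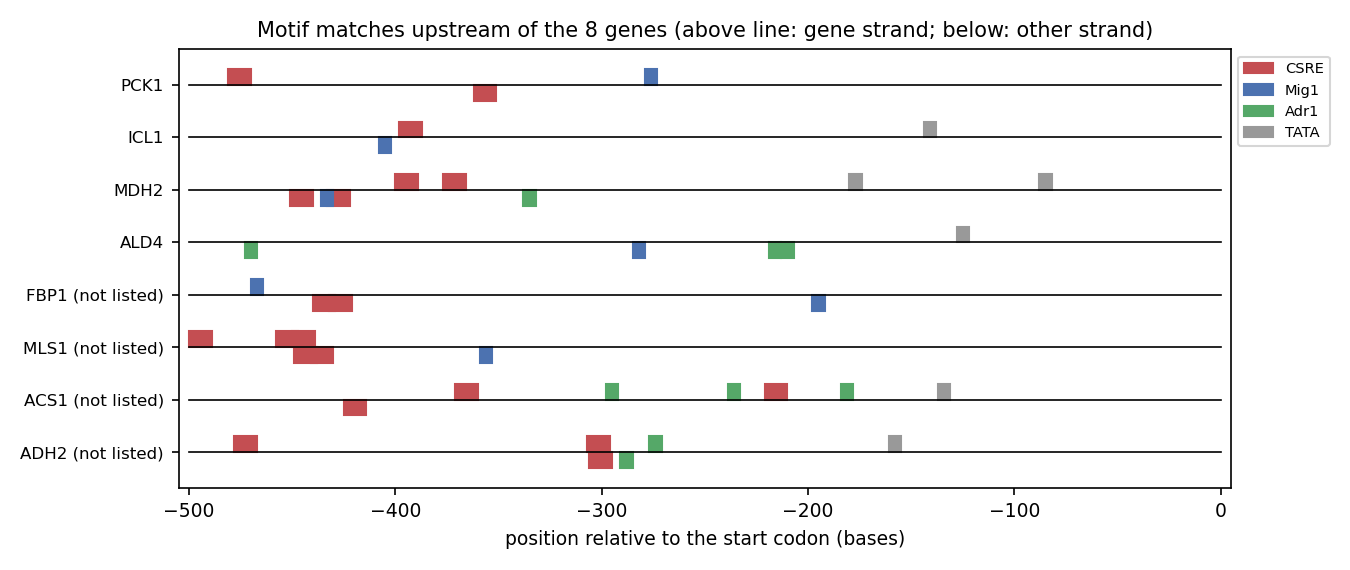
Matches to 4 motifs in the 500 bases before the start codon of the 8 genes, by position relative to the start codon (bases); boxes above the line are matches on the gene's strand and boxes below on the other strand. CSRE matches lie between -500 and -211, and ALD4 has none; TATA stands for the letters TATAAA.

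The 4 listed genes differed from each other in how their RNA levels stood against the wild type. PCK1 stood higher in the Dcp2 strain than in the wild type, MDH2 stood lower there and higher in the Ccr4/Pop2 strain, ALD4 stood higher in both degrons, and ICL1 lay between 11.6 and 14.2 CPM in all 6 libraries. None of these differences passed edgeR's test across all genes unless the replicate number was a block, under which 5 did. Levels are given in CPM, counts scaled to library size, after TMM scaling, which sets the libraries to a common middle. In bulk RNA, fewer cells that express a gene and less of its RNA per cell cannot be told apart.

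PCK1 encodes phosphoenolpyruvate carboxykinase, which starts gluconeogenesis from oxaloacetate (YKR097W, chrXI:631152-632801, a single coding exon). It had 4 and 1 reads in wild-type replicates 1 and 2, 53 and 45 in the Dcp2 strain, and 24 and 8 in the Ccr4/Pop2 strain. These are levels of 2.06 and 0.805 CPM, of 32.7 and 22.7 CPM, and of 2.57 and 5.48 CPM. Both Dcp2 strain libraries lay far above the other 4, and both Ccr4/Pop2 strain libraries lay above both wild-type libraries by a small margin that rests on few reads. The lowest count in replicate 1 of either degron, 20, is already a higher level than PCK1 had in the wild type. As a listed gene, PCK1 could therefore only stand above the wild type in those libraries. In Dcp2 strain replicate 1 that count is also a higher level than PCK1 had in either Ccr4/Pop2 strain library.

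The ratio of PCK1 levels between the Dcp2 strain and the wild type was 15.9 in replicate 1 (exact 95% interval 5.86 to 60.5) and 28.3 in replicate 2 (4.82 to 1140). Intervals cover counting error only, not the limit that the listing set in replicate 1. For the Ccr4/Pop2 strain the ratio was 1.25 (0.296 to 6.02, taking the 24 counts as 6 reads) and 6.81 (0.913 to 302), so that a difference was not detectable at this depth. Its fitted log2 change there was 1.13 with a standard error of 0.73 (edgeR adjusted p-value 0.801, and 0.397 with the block). The fitted log2 change in the Dcp2 strain was 4.12 (standard error 0.62), and edgeR's quasi-likelihood test did not pass (adjusted p-value 0.169). Blocking on replicate number, edgeR gave 4.12 and passed (adjusted p-value 1.02e-05). DESeq2 without a block gave 4.17 and passed too (adjusted p-value 0.000803).

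ICL1 encodes isocitrate lyase, the first enzyme specific to the glyoxylate cycle (YER065C, chrV:285241-286914, a single coding exon). Its reads were 23 and 15 for the wild type, 23 and 24 in the Dcp2 strain, and 108 and 18 in the Ccr4/Pop2 strain. After scaling the level was 11.96 ± 0.172 CPM in the wild type, 13.2 ± 1.46 CPM in the Dcp2 strain and 11.95 ± 0.543 CPM in the Ccr4/Pop2 strain (SD, n = 2 each), and the 6 libraries stood between 11.6 and 14.2 CPM. ICL1 did not pass the test in either degron.

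Its log2 changes were 0.14 with a standard error of 0.33 in the Dcp2 strain and -0.0082 with a standard error of 0.32 in the Ccr4/Pop2 strain (edgeR adjusted p-values 0.894 and 0.999). With the replicate block these were 0.14 and -0.028 (edgeR adjusted p-values 0.781 and 0.958). Counting error alone allows ratios in the Dcp2 strain from 0.643 to 2.24 in replicate 1 and from 0.506 to 2.06 in replicate 2, so a change within those bounds was not detectable. The lowest count in Dcp2 strain replicate 1, 20, is already a slightly higher level than ICL1 had in the wild type. As a listed gene, ICL1 could therefore not stand below the wild type in that library.

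MDH2 encodes the cytosolic malate dehydrogenase, which forms oxaloacetate for gluconeogenesis and the glyoxylate cycle (YOL126C, chrXV:81787-82920, a single coding exon). Its reads were 137 and 68 for the wild type, 52 and 59 in the Dcp2 strain, and 1716 and 164 in the Ccr4/Pop2 strain. After scaling these were levels of 70.5 and 54.7 CPM, of 32.1 and 29.8 CPM, and of 184 and 112 CPM. The 3 groups did not overlap, with the Dcp2 strain lowest and the Ccr4/Pop2 strain highest.

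The log2 change of MDH2 in the Dcp2 strain was -1.02 with a standard error of 0.36 (edgeR adjusted p-value 0.365). Blocked on replicate it was -0.99 (0.000974 by edgeR). Total-count scaling, under which the median over all genes became 0.51 in that comparison, gave -0.47 with the block and an edgeR adjusted p-value of 0.0496. In the Ccr4/Pop2 strain the change was 1.24 with a standard error of 0.35 (edgeR adjusted p-value 0.463) and 1.25 with the block (2.79e-05). Between the degron strains MDH2 stood 2.26 higher on the log2 scale in the Ccr4/Pop2 strain (edgeR adjusted p-value 0.0638, and 2.24 with 4.22e-08 under the block). In the comparisons with the wild type the relatives MDH1, the mitochondrial enzyme, and MDH3, the peroxisomal enzyme, did not pass the test, with or without the block: MDH1 stood at 153 ± 4.71, 141 ± 4.94 and 144 ± 7.30 CPM, and MDH3 at 176 ± 57.1, 154 ± 19.9 and 200 ± 56.9 CPM (wild type, Dcp2 and Ccr4/Pop2 strain, SD, n = 2). The coding sequence of MDH2 shares 56.4% of bases with MDH1 and 54.1% with MDH3, with no identical run over 14 bases.

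ALD4 encodes the major mitochondrial aldehyde dehydrogenase, which turns acetaldehyde into acetate (YOR374W, chrXV:1039840-1041399, a single coding exon). Its reads were 59 and 39 for the wild type, 87 and 119 in the Dcp2 strain, and 1188 and 106 in the Ccr4/Pop2 strain. After scaling these were levels of 30.4 and 31.4 CPM, of 53.7 and 60.2 CPM, and of 127 and 72.7 CPM. Both libraries of each degron lay above both wild-type libraries, and the Ccr4/Pop2 strain libraries differed from each other the most.

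The log2 change of ALD4 in the Dcp2 strain was 0.88 with a standard error of 0.35 (edgeR adjusted p-value 0.412). Blocked on replicate it was 0.93 (0.00626 by edgeR). Total-count scaling with the block gave 1.44, beside a median of 0.51 over all genes. In the Ccr4/Pop2 strain it was 1.71 with a standard error of 0.35 (edgeR adjusted p-value 0.306) and 1.76 with the block (1.95e-05). Leaving out Ccr4/Pop2 strain replicate 1 gave 1.23.

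Across all 4909 genes edgeR without the block called 0% in the Dcp2 strain (0 genes, while 579 had an unadjusted p-value under 0.05, and DESeq2 called 53) and 0.0815% in the Ccr4/Pop2 strain, and none of the 4 listed genes was among edgeR's calls. Of the 53 genes that DESeq2 called, 1 was listed here, PCK1. With the replicate block it called 37.4% and 27% of genes, and of the 4 listed genes 3 in the Dcp2 strain (PCK1 and ALD4 higher, MDH2 lower) and 2 in the Ccr4/Pop2 strain (MDH2 and ALD4 higher). Under total-count scaling the block called 2490 higher and 300 lower of all genes in the Dcp2 strain, against 866 and 968, and 991 and 433 in the Ccr4/Pop2 strain, against 698 and 629. A call under the block is therefore common in this table. Non-overlap of CPM was also common: 21.8% of all genes stood above and 20.4% below the wild type in both Dcp2 strain libraries, and 16.5% above and 15.6% below in the Ccr4/Pop2 strain. Both comparisons use the same wild-type libraries.

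Between the strains, edgeR without the block called 0% of genes (0 genes, while 803 had an unadjusted p-value under 0.05, and DESeq2 called 155, PCK1 and MDH2 among them). With the block it called 47.1% (26.3% higher and 20.8% lower in the Ccr4/Pop2 strain), and of the 4 genes it called MDH2 and ALD4 higher and PCK1 lower. PCK1 stood lower in the Ccr4/Pop2 strain by a log2 change of -2.995 (standard error 0.51, edgeR adjusted p-value 0.0791). For PCK1, MDH2 and ALD4 both libraries of a strain lay on one side of both libraries of the other, while ICL1 overlapped. Over all genes 23.4% lay higher and 22.2% lower in the Ccr4/Pop2 strain in that way. The lowest count in Dcp2 strain replicate 1, 20, is a higher level than PCK1 had in either Ccr4/Pop2 strain library. As a listed gene, PCK1 could therefore only stand higher in that Dcp2 strain library.

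**Figure D2:**
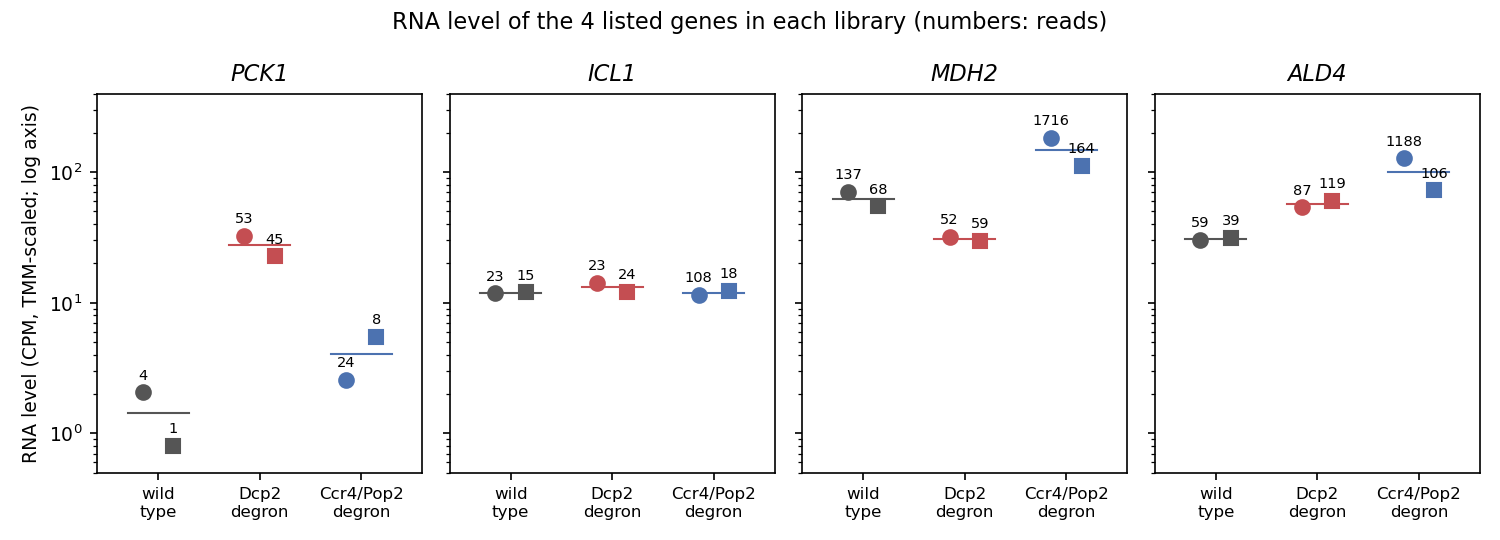
RNA level (CPM, log axis) of each listed gene in each library, circles for replicate 1 and squares for replicate 2, with group means as lines and read numbers above the points. PCK1 stands at 2.06 and 0.805 CPM in the wild type and at 32.7 and 22.7 CPM in the Dcp2 strain, a difference that passed the edgeR test with the replicate block and not without it, and ICL1 lies between 11.6 and 14.2 CPM throughout.

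**Figure D3:**
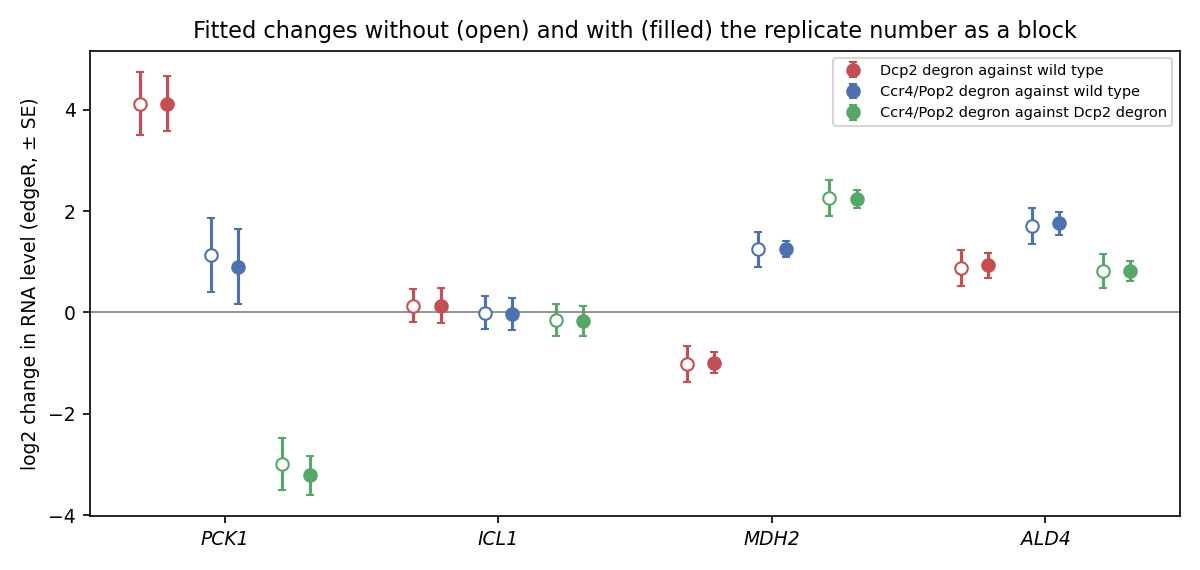
Fitted log2 changes in RNA level with standard errors for the 4 listed genes in 3 comparisons, open circles without and filled circles with the replicate number as a block. MDH2 stands at -1.02 in the Dcp2 strain and at 1.24 in the Ccr4/Pop2 strain, and PCK1 at 4.12 and 1.13.

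Of all wild-type reads the 4 genes together took 0.0120% in replicate 1 (95% Wilson interval 0.0105 to 0.0137) and 0.00702% in replicate 2 (0.00589 to 0.00838). Dcp2 strain replicates 1 and 2 gave 0.0201% (0.0176 to 0.0230) and 0.0126% (0.0111 to 0.0142). Ccr4/Pop2 strain replicates 1 and 2 gave 0.0359% (0.0347 to 0.0372, which takes each count as a read) and 0.0162% (0.0145 to 0.0182). Each degron library held a larger share than the wild-type library of the same number. The shares are of total reads, without TMM scaling. Under total-count scaling the median over all genes also stood higher in both degron strains, by less in the Ccr4/Pop2 strain than in the Dcp2 strain. Whether a larger share is particular to these genes was not tested. Replicate 1 held the larger share in each of the 3 groups, and the intervals of wild-type replicate 1 and Dcp2 strain replicate 2 overlapped.

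Tail length separated the genes in another way. The tail of the median gene among all listed was 39.6 and 43.8 nt in the wild type, 32.0 and 39.4 nt in the Dcp2 strain, and 51.9 and 52.4 nt in the Ccr4/Pop2 strain. MDH2 stood above the median gene in all 6 libraries, while ALD4 stood below it in both Ccr4/Pop2 strain libraries. Medians of few reads are unstable: among genes whose lower wild-type count was 5 to 19 reads, the replicates differed by a median of 6.19 nt after their overall difference was removed, against 1.89 nt for genes with at least 200 reads.

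MDH2 tails measured 45.0 and 49.4 nt in the wild type, 46.9 and 58.8 nt in the Dcp2 strain, and 60.1 and 60.3 nt in the Ccr4/Pop2 strain. The Dcp2 strain libraries overlapped the wild type, while 1.98% of all genes had longer and 45.9% shorter tails in both Dcp2 strain libraries than in both wild-type libraries. At a log2 change of 0.16, where the 3949 genes with no library under 20 reads had a median of -0.22, MDH2 did not pass limma's test in the Dcp2 strain (adjusted p-value 0.518), which called 0% of those genes in either strain (0 genes, while 793 and 1136 had an unadjusted p-value under 0.05). In the Ccr4/Pop2 strain its tail change of 0.35 was near the median of 0.30 and did not pass either (limma, adjusted p-value 0.173). A model of those 4 libraries alone gave an adjusted p-value of 0.0223, where it called 2342 genes.

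ALD4 tails measured 43.2 and 45.0 nt in the wild type, 18.5 and 44.9 nt in the Dcp2 strain, and 39.6 and 41.7 nt in the Ccr4/Pop2 strain. Both Ccr4/Pop2 strain values were below both wild-type values, a position that 0.387% of all genes shared, whereas for 86.4% both were above. Within the Ccr4/Pop2 strain libraries, 4.18% and 5.01% of genes had shorter tails than ALD4, against 64.7% and 56.4% in the wild type. The differences between same-numbered libraries were -3.63 and -3.27 nt, where the median gene differed by 10.4 and 8.10 nt.

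The log2 tail change of ALD4 in the Ccr4/Pop2 strain was -0.12 with a standard error of 0.37 (limma, adjusted p-value 0.77), and it ranked 3938 of 3949 genes from the longest change. The standard error pools the spread in all 3 groups, and in the Dcp2 strain replicate 1 gave 18.5 nt from 87 reads and replicate 2 gave 44.9 nt from 119 reads. The Ccr4/Pop2 strain change was called in 0 of 10 alternatives, a fit of only the groups compared among them. In the Dcp2 strain the change was -0.62 (limma, adjusted p-value 0.344). Without Dcp2 strain replicate 1 it was 0.025 (0.938), and without replicate 2 it was -1.26 (0.000667), so that value rests on 1 library.

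ICL1 and PCK1 had fewer than 20 reads in at least 1 library and were outside the fit. ICL1 tails measured 56.4 and 47.8 nt in the wild type, 33.7 and 33.2 nt in the Dcp2 strain, and 55.04 and 56.3 nt in the Ccr4/Pop2 strain. The Dcp2 strain values lay 22.7 and 14.5 nt below the wild-type values of the same number, from 15 to 24 reads in each of these 4 libraries. The median gene differed by -7.53 and -3.9 nt in the same pairs, and 45.9% of all genes were shorter without overlap there. ICL1 tails in the Ccr4/Pop2 strain overlapped the wild type. With at least 5 reads as the minimum, the log2 change of ICL1 in the Dcp2 strain was -0.63 (limma, adjusted p-value 0.126).

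PCK1 tails measured 42.2 and 73.8 nt in the wild type, from 4 reads and 1 read, which is too few to describe a tail length. They measured 27.8 and 39.8 nt in the Dcp2 strain from 53 and 45 reads, and 69.8 and 61.6 nt in the Ccr4/Pop2 strain from 24 and 8 counts. In the Ccr4/Pop2 strain 99.5% and 91.9% of genes had shorter tails than PCK1, and in the Dcp2 strain 23.4% and 52.2%. All PCK1 tails in the Ccr4/Pop2 strain were thus longer than those in the Dcp2 strain, as for 94.7% of all genes, with 0.143% the other way round. Between the strains limma called 69.6% of the genes tested for tail length, and neither MDH2 (0.20, adjusted p-value 0.236) nor ALD4 (0.50, 0.228).

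**Figure D4:**
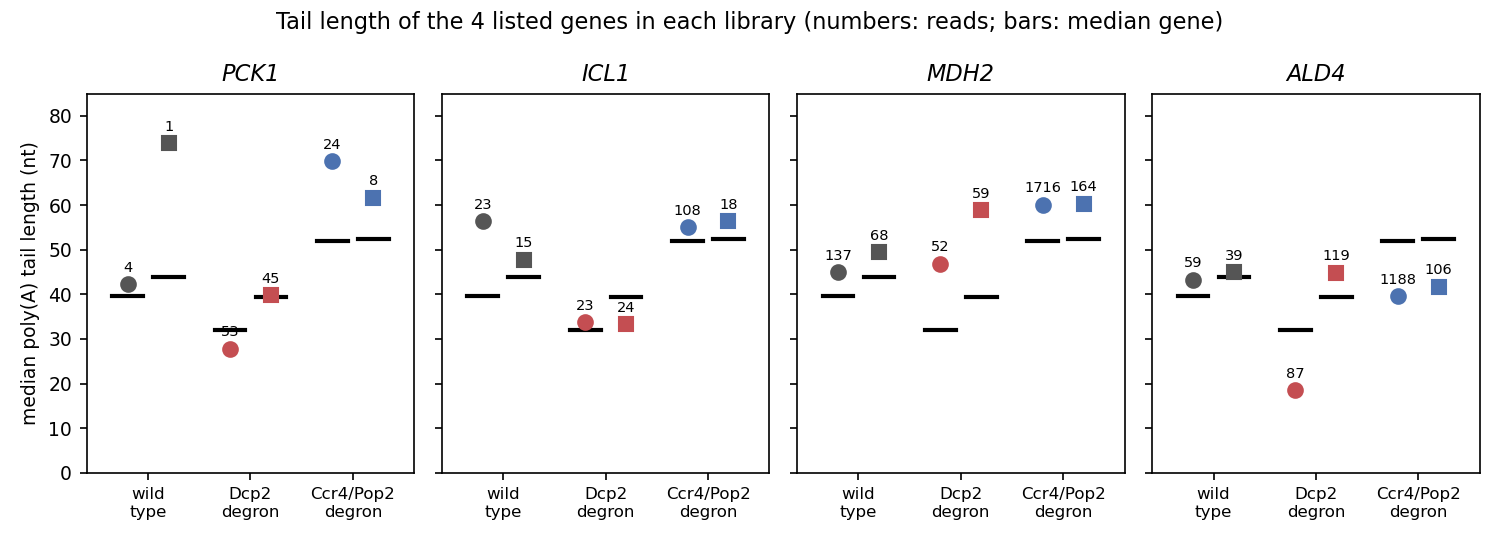
Median poly(A) tail length (nt) of each listed gene in each library, circles for replicate 1 and squares for replicate 2, with read numbers above the points and a black bar for the median gene of that library. ALD4 lies below the bar in both Ccr4/Pop2 strain libraries (39.6 and 41.7 nt), and MDH2 lies above it in all 6.

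The other genes of the pathway were taken from lists by function, and counts are given for edgeR with the replicate block, beside the shares over all genes of 17.6% higher and 19.7% lower in the Dcp2 strain and 14.2% higher and 12.8% lower in the Ccr4/Pop2 strain. Without the block edgeR called 0 genes of the lists in this and the next paragraphs. The lowest count in Dcp2 strain replicate 1, 20, is a higher level than DAL7, PYK2, CAT2 and FYV10 had in wild-type replicate 1. As listed genes they could only stand higher in that library, so its rise is no support for a direction. Of 12 listed isoforms for the entry of ethanol and acetate, 2 were called higher and 5 lower in the Dcp2 strain and 1 higher and 3 lower in the Ccr4/Pop2 strain, with median log2 changes of -0.041 and -0.19. Total-count scaling with the block gave 5 higher and 2 lower in the Dcp2 strain. ALD6, the main cytosolic aldehyde dehydrogenase, went in opposite directions under the block. It stood at 324 ± 138 CPM in the wild type, fell to 158 ± 43.9 CPM in the Dcp2 strain and rose to 1010 ± 218 CPM in the Ccr4/Pop2 strain (SD, n = 2). Its log2 changes were -1.02 and 1.67 (edgeR adjusted p-values with the block 1.75e-05 and 4.63e-08, and 0.44 and 0.474 without). Total-count scaling with the block gave -0.50 for ALD6 in the Dcp2 strain. ALD5, a mitochondrial isoform, fell under the block by 0.82 in the Dcp2 strain and by 1.03 in the Ccr4/Pop2 strain, but total-count scaling gave -0.30 in the Dcp2 strain and did not pass (edgeR adjusted p-value 0.0848). The stress-induced ALD2 rose by 1.37 in the Dcp2 strain under the block. The ALD4 coding sequence shares 64.4% of bases with ALD5 and 61.3% with ALD6.

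Of 22 listed enzymes of the glyoxylate cycle, the TCA cycle and pyruvate carboxylation, 7 were called higher and 4 lower in the Dcp2 strain and 8 higher and 1 lower in the Ccr4/Pop2 strain, with medians of -0.14 and 0.37. With total-count scaling 12 were higher and 0 lower in the Dcp2 strain. CIT2, the peroxisomal citrate synthase, in the Ccr4/Pop2 strain stood at 67.1 ± 2.11 CPM against 31.9 ± 1.51 CPM (SD, n = 2), with a log2 change of 1.08 (edgeR adjusted p-value with the block 0.000365, and 0.378 without). ACO1, the aconitase, changed by 1.09 and PYC1, a pyruvate carboxylase, by 0.97, both called higher there under the block. IDP2, the cytosolic NADP-specific isocitrate dehydrogenase, rose by 0.85 in the Dcp2 strain under the block, from 27 and 18 to 38 and 57 reads, and by 1.36 with total-count scaling.

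DAL7, a second malate synthase whose coding sequence shares 74.1% of bases with that of MLS1, went from 19 and 30 reads in the wild type to 76 and 112 in the Dcp2 strain, while the Ccr4/Pop2 strain had 56 and 10. Its log2 changes were 1.69 and -1.21, both called by edgeR with the replicate block (adjusted p-values 6.55e-05 and 0.0112, and 0.289 and 0.545 without). The wild-type libraries themselves stood at 9.78 and 24.2 CPM. MLS1 is not listed, and whether any of its reads were assigned to DAL7 was not tested.

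The glycolytic enzymes that also run in the direction of glucose numbered 10, all listed. In the Dcp2 strain 1 was called higher (TDH1) and 6 lower under the replicate block, with a median log2 change of -0.33, but total-count scaling turned the direction of ENO2, FBA1, GPM1 and TPI1 and gave 4 higher and 0 lower. For the Ccr4/Pop2 strain 1 was called higher and 1 lower, with a median of -0.031 (2 and 0 with total-count scaling). Of 7 listed genes for the opposing steps of glycolysis, 1 was called higher and 4 lower in the Dcp2 strain, where total-count scaling turned PFK2 and gave 3 and 1, and 1 higher and 1 lower in the Ccr4/Pop2 strain, where it gave 1 and 0. CDC19, the main pyruvate kinase, fell by 0.90 in the Dcp2 strain under the block, and by 0.39 with total-count scaling. PYK2, the pyruvate kinase that is repressed by glucose, rose by 1.53 and 1.83 in the Dcp2 and Ccr4/Pop2 strain under the block, from 8 and 6 wild-type reads.

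The list for the transport of acetyl units and acids had 10 listed genes, among them enzymes (CAT2, YAT2) and a fatty acyl transporter (PXA1). Under the replicate block 3 were called higher and 2 lower in the Dcp2 strain, and 1 higher and 2 lower in the Ccr4/Pop2 strain. Total-count scaling with the block gave 8 and 0 in the Dcp2 strain. MPC3, a subunit of the mitochondrial pyruvate carrier, rose in the Ccr4/Pop2 strain from 14.4 and 40.3 to 126 and 404 CPM, a log2 change of 3.23 (edgeR adjusted p-value with the block 3.82e-10, and 0.368 without). CAT2, the carnitine acetyltransferase, rose by 2.03 in the Dcp2 strain, from 6 and 21 to 48 and 86 reads, while in the Ccr4/Pop2 strain it had 44 and 7 counts.

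Of 22 listed regulators of these genes, 2 were called higher and 7 lower in the Dcp2 strain, where total-count scaling turned GLC7 and HAP4 and gave 9 and 2, and 2 higher and 1 lower in the Ccr4/Pop2 strain (4 and 1 with that scaling), with medians of -0.16 and -0.0076. MTH1, a repressor of hexose transporter genes, in the Ccr4/Pop2 strain stood at 116 ± 26.9 CPM against 24.3 ± 3.14 CPM (SD, n = 2), with a log2 change of 2.31 (edgeR adjusted p-value with the block 2.16e-07, and 0.112 without). MIG2, a repressor related to Mig1, fell by 1.15 in the Dcp2 strain and rose by 0.54 in the Ccr4/Pop2 strain under the block, and HXK2, the hexokinase with a part in glucose repression, fell by 1.08 in the Dcp2 strain. With total-count scaling the changes in the Dcp2 strain were -0.64 for MIG2 and -0.56 for HXK2.

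The Gid ubiquitin ligase marks the gluconeogenic enzymes Fbp1, Icl1, Mdh2 and Pck1 for destruction when glucose returns. The list grouped with it had 7 listed genes, UBC8 and VID22 among them, which are not subunits of the ligase. Of these 7, 2 were called higher and 0 lower under the replicate block in each degron strain. Both comparisons share the wild-type libraries. With total-count scaling 5 were higher and 0 lower in the Dcp2 strain, and 2 and 0 in the Ccr4/Pop2 strain. VID24, its substrate receptor, had a log2 change of 1.35 in the Dcp2 strain and 1.68 in the Ccr4/Pop2 strain (edgeR adjusted p-values with the block 0.000147 and 1.89e-05, and 0.471 and 0.583 without), with wild-type libraries at 28.3 and 9.66 CPM. FYV10, a subunit of the ligase, changed by 1.55 and 1.64, from 7 reads in each wild-type library. With so few it was listed only because it stood higher in Dcp2 strain replicate 1, where the lowest count was 20. Only 7 of the 11 genes in this list have a row, so the counts are no support for a direction.

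**Figure D5:**
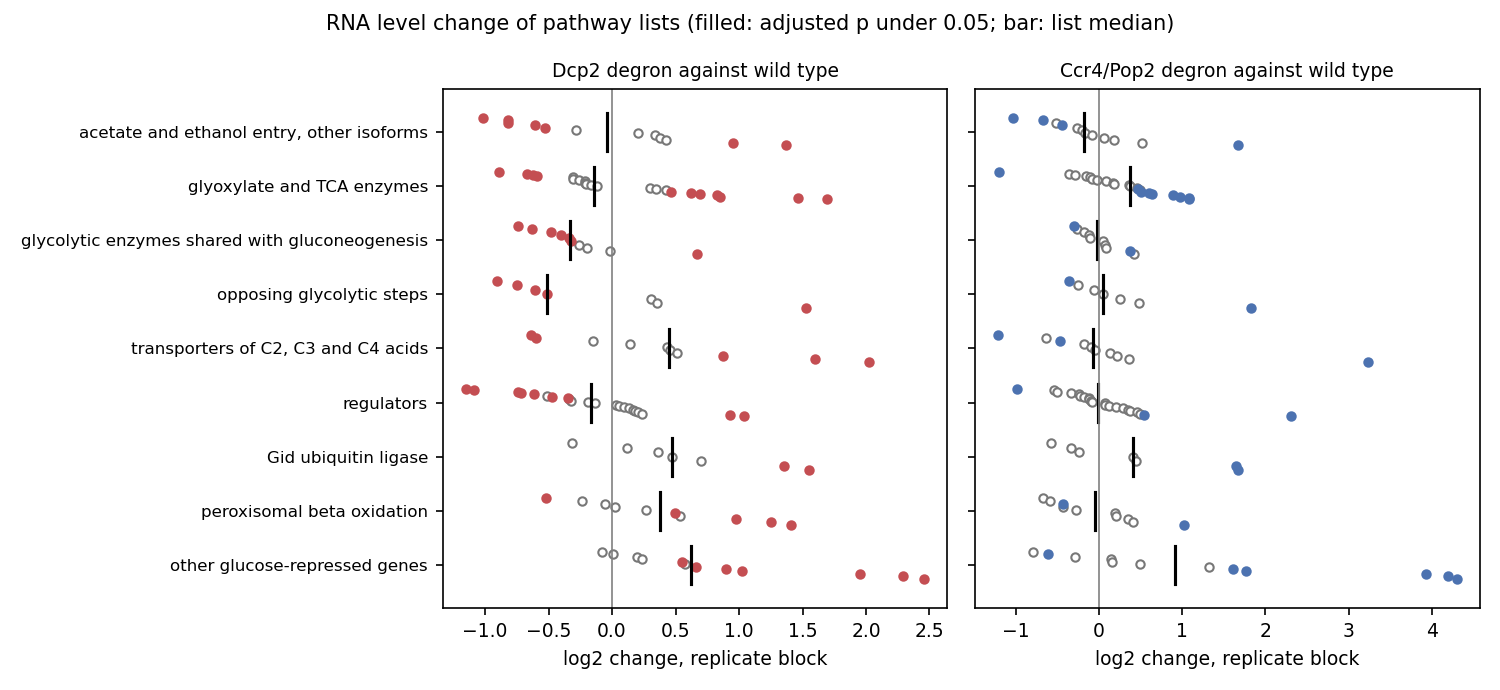
Log2 change in RNA level (edgeR with the replicate block) of each gene in 9 pathway lists, for each degron against the wild type; filled circles passed the test, open circles did not, and bars are list medians. Filled circles lie on both sides of 0 in most lists. The Gid ubiquitin ligase list in both degrons and the list of other glucose-repressed genes in the Dcp2 strain have filled circles above 0 alone. A gene scarce in the wild type is drawn only if it had at least 20 reads in replicate 1 of both degron strains.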

How the data were processed

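Direct RNA libraries (kit SQK-RNA002) from 6 yeast samples were compared. Per the submitters' processing notes, reads were handled with minimap2 and SAMtools 1.9 on sacCer3. The basecaller, the annotation, the assignment of reads to genes and the use of strand are not given in the sources used here, so reads of antisense transcripts cannot be told apart; no annotated gene of R64 overlaps the 4 genes. The deposited counts are, per the file headers, reads per gene and not normalized, and the medians beside them carry no stated unit. All 4909 genes have a value in all 6 libraries. Unnumbered columns were taken as replicate 1 by elimination, and 0 columns of per-library values stayed unmatched.

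RNA levels were tested with edgeR 4.0.16 in R 4.3.3 (TMM, filterByExpr, quasi-likelihood test, all 6 libraries) and tails with limma 3.58.1 on log2 values of the 3949 genes with no library under 20 reads. Both were adjusted over all genes by Benjamini-Hochberg, with 0.05 as the threshold, after tests on simulated data. Same-numbered libraries deviated together in log2 CPM (correlations 0.805, 0.826 and 0.792), so the replicate number was also used as a block. The pairing comes from these correlations and the titles, not from stated cultures. For tails the correlations were 0.257, 0.148 and 0.0548. Standard errors for edgeR are the change divided by the square root of F. Alternatives were other scalings, filters, DESeq2 1.42.0, and leaving out each library. Coordinates and sequences are from RefSeq R64. The genes, lists and tests were chosen with earlier results of these data known. The text names the 4 listed genes and, from each list, up to 4 called genes by size of change.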

Additional observations from a re-analysis of the deposited data

Results flagged for a closer look

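For 3 genes the effects of the degron strains differed by the direct test between them, edgeR with the replicate number as a block. PCK1 stood lower in the Ccr4/Pop2 strain by a log2 change of -3.22 (edgeR adjusted p-value 3.08e-06, and 0.0791 without the block). Both libraries of one strain lay below both of the other, but in Dcp2 strain replicate 1 the listing fixed that direction. The lowest count there, 20, is a higher level than PCK1 had in either Ccr4/Pop2 strain library. MDH2 stood higher in the Ccr4/Pop2 strain by 2.24 (edgeR adjusted p-value 4.22e-08, and 0.0638 without the block). ALD4 stood higher there by 0.83 (edgeR adjusted p-value 0.00225, and 0.304 without the block). Total-count scaling with the block gave 0.42 for ALD4 (edgeR adjusted p-value 0.0504), and leaving out Ccr4/Pop2 strain replicate 1, without the block, gave 0.35. With the block 47.1% of all genes were called between the degron strains.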

How the results depend on the processing

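The edgeR calls for RNA level depended on the replicate block. Without it, edgeR called 0 of the 4 genes in any comparison. With the replicate block the calls were 3 of the 4 (1834 of all genes) in the Dcp2 strain, 2 (1327) in the Ccr4/Pop2 strain and 3 (2311) between the degron strains. Total-count scaling with the replicate block gave 3 (2790, of which 2490 higher and 300 lower, against 866 and 968), 2 (1424) and 2 (2489, of which 473 higher and 2016 lower, against 1292 and 1019). It moved the median of all genes to 0.51, 0.10 and -0.33, to which directions are relative. DESeq2, without a block, called 1 (53), 0 (33) and 2 (155). Against 0, 4 and 0 genes without the block, total-count scaling alone called 5 in the Dcp2 strain and 0 in the Ccr4/Pop2 strain, a filter of at least 10 reads in 4 libraries called 1 in the Dcp2 strain, and DESeq2 size factors and a fit of only the groups compared called 2 and 0 in the Ccr4/Pop2 strain. Leaving out each replicate gave 0 to 0 genes there, so its 4 calls were lost each time. Dividing the counts of Ccr4/Pop2 strain replicate 1 by 4 turned no direction and changed no call among the 4 genes.

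For tails, leaving out each replicate gave 0 to 2080 calls in the Dcp2 strain (0 to 1 of the listed genes) and 0 to 3683 between the degron strains (0 to 2), against 0 and 2749. In the Dcp2 strain, centring on library medians called 1 gene and the nucleotide scale 2. In the Ccr4/Pop2 strain, a fit of only its own 4 libraries called 2342, 1 of them listed here. Between the degron strains, a minimum of 50 reads called 1739, centring called 0, and minimums of 5 reads and of none called 1 (ICL1) and 2 (ICL1 and PCK1) of the listed genes. The replicate block for tails, whose libraries share only a number, called 0, 0 and 3313 genes and none of the listed ones.

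Directions turned in 8 of 227 alternatives for single genes. ICL1 in the Ccr4/Pop2 strain was 0.13 under total-count scaling, 0.078 with the block too, and -0.067 to 0.046 when each replicate was left out, above 0 without Ccr4/Pop2 strain replicate 1. Tail changes in the Dcp2 strain ran from -1.26 to 0.025 for ALD4, turning without Dcp2 strain replicate 1, and from -0.0078 to 0.32 for MDH2, turning without replicate 2. Between the degron strains they turned to -0.35 for MDH2 and -0.052 for ALD4 after centring, and ran from -0.14 to 1.14 for ALD4, turning without Dcp2 strain replicate 1. The causes were not tested. ALD4 held the most reads of the listed genes in both Dcp2 strain libraries and MDH2 in the other 4. Without ALD4 the shares of reads were 0.00883% and 0.00480% in the wild type, 0.0120% and 0.00651% for the Dcp2 strain, and 0.0219% and 0.0104% for the Ccr4/Pop2 strain, still higher in each degron library than in the wild-type library of the same number. These shares are of total reads. Under total-count scaling the median over all genes also stood higher in both degron strains, by less in the Ccr4/Pop2 strain. ADH2 is not listed, so leaving it out gave no value.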

Other observations

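Other genes known to be repressed by glucose were also examined. Of 12 listed, 7 were called higher and 0 lower in the Dcp2 strain and 5 higher and 1 lower in the Ccr4/Pop2 strain with the replicate block, with median log2 changes of 0.62 and 0.91. Over all genes 17.6% were called higher and 19.7% lower in the Dcp2 strain, and 14.2% and 12.8% in the Ccr4/Pop2 strain. Only 12 of the 23 genes in this list have a row, and a gene scarce in the wild type has a row only with at least 20 reads in replicate 1 of both degron strains, so the counts are no support for a direction. Total-count scaling gave 10 and 0, and 5 and 0. Without the block edgeR called 2, HXT7 and HXT6, higher in the Ccr4/Pop2 strain. The levels of HXT6 and HXT7 ran alike over the libraries, and whether their reads were kept apart was not tested. HXK1, the hexokinase that is repressed by glucose, stood at 12.3 ± 5.95 CPM in the wild type, 59.6 ± 17.8 CPM in the Dcp2 strain and 245 ± 119 CPM in the Ccr4/Pop2 strain (SD, n = 2). GAL1, the galactokinase, went from 5 and 3 wild-type reads to 21 and 29 in the Dcp2 strain, a log2 change of 2.46 (edgeR adjusted p-value with the block 0.000913, and 0.194 without). At so few wild-type reads GAL1 could be listed only by standing higher in Dcp2 strain replicate 1, so its direction there was fixed.

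Peroxisomal oxidation of fatty acids gives acetyl units that the glyoxylate cycle can use. Of 10 listed genes, 4 were called higher and 1 lower in the Dcp2 strain and 1 higher and 1 lower in the Ccr4/Pop2 strain with the replicate block, beside 17.6% and 19.7%, and 14.2% and 12.8%, of all genes. FAA2, a medium-chain acyl-CoA synthetase, rose by 1.41 in the Dcp2 strain (edgeR adjusted p-value with the block 0.00074, and 0.395 without), from wild-type libraries at 7.72 and 19.3 CPM. As a listed gene it could only stand above the lower of these in Dcp2 strain replicate 1. In the Dcp2 strain the lower gene, FAA4, turned direction under total-count scaling, which gave 6 higher and 0 lower there and 1 and 0 in the Ccr4/Pop2 strain.

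Over the 6 libraries the log2 CPM values of MDH2 correlated with PCK1 at -0.60, with ICL1 at -0.59 and with ALD4 at 0.53 (Pearson). PCK1 and ICL1 correlated at 0.70, PCK1 and ALD4 at 0.26, and ICL1 and ALD4 at -0.11. ICL1 lay between 11.6 and 14.2 CPM throughout, within counting error, so nothing is read from its coefficients. In Dcp2 strain replicate 1 the lowest count, 20, is a higher level than PCK1 or ICL1 had in the wild type. As listed genes both could only stand above the wild type there. Behind each value stand 2 libraries in each of 3 strains. Among 3947 other genes with no library under 20 reads, those most like the mean of the 4 genes, each centred on its own mean, were AHA1, an activator of Hsp90 (0.986), UBI4, the polyubiquitin gene (0.982), HSM3 (0.979), COT1 (0.978) and FUN14 (0.978). These are the highest of 3947 coefficients over only 6 libraries. A search of that size can give such values by itself, and no link was tested. PCK1, with 4 and 1 wild-type reads, varied most and so weighs most in that mean.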
